A study of Homo sapiens with 6 samples.

Results

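The genes described here encode the soluble hydrolases of the lysosome, their activator proteins, and the main proteins of its membrane. They were taken from a list of 33 gene names without the cathepsins, and 31 of the 33 had a row in the deposited table of 22413 genes; Galc and Acp5 are not analysed here. The list was drawn up with the difference between I13 and control samples already known, so every value of that difference is given as a description and supports no claim. mRNA was sequenced from BaF3-T315I cells, a murine haematopoietic line stably transfected with BCR-ABL carrying the T315I mutation, which makes the kinase resistant to imatinib. Controls and I13-treated cells gave 3 samples each, the latter at 1.1 µM of I13, an inhibitor of histone deacetylases derived from indole-3-butyric acid. All 6 samples carry the same BCR-ABL transgene, the exposure in the study's methods was 48 h, and the labels do not say what the controls received or for how long. Expression is given as FPKM, the fragments on a gene scaled to its length and to the size of the library. Values of single samples are listed in the order of replicates 1, 2 and 3.

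Lysosomal hydrolases are made in the endoplasmic reticulum, tagged with mannose 6-phosphate and delivered to an acidic compartment where they take apart glycans, lipids and proteins. Each one cuts a particular bond, and the inherited loss of a single enzyme leads to a lysosomal storage disease. The membrane is lined by heavily glycosylated proteins, chiefly LAMP1 and LAMP2, and many of these genes share the transcription factor TFEB as a regulator.

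Most of the lysosomal genes were higher after I13. Of the 31 genes, 29 had a mean of at least 0.5 FPKM over the 6 samples and entered the comparison, and 26 of these 29 had a higher mean log2(FPKM + 0.1) in the I13 samples, against 49.2% of the 12163 genes tested. Summed over the 31 genes, the level was 786, 669 and 1082 FPKM in control replicates 1, 2 and 3, and 948, 1053 and 1598 FPKM in I13 replicates 1, 2 and 3. The sum was higher by 1.21, 1.57 and 1.48 times within replicate numbers 1, 2 and 3, though control replicate 3 lay above I13 replicates 1 and 2. For the 29 genes the log2 fold change had a median of 0.37, beside -0.005 over all genes tested, and with the low genes kept, over 31 genes, this median was 0.35. Without I13 replicate 3 the median was 0.17, and without control replicate 2 it was 0.22. In RNA from a whole culture, a larger share of cells with these transcripts and more transcripts per cell cannot be told apart.

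Calls required 0.58 or more of log2 fold change, up or down, together with an adjusted p (Benjamini-Hochberg, whole table) below 0.05. In limma without a term for the replicate number, 0 of the 29 genes were called in either direction, where 0.0329% of all genes were called higher and 0.00822% lower. At an unadjusted p below 0.05 in that fit there were 9 of the 29, 8 of them higher and 1 lower, beside 18.6% of all genes in either direction and 7.79% higher, and limma with voom on the recovered fragments also called 0. Samples with the same replicate number deviated together, and with the replicate number as a block 6 of the 29 were called higher and 0 lower, beside 1.36% and 0.526% of all genes. These 6 were Glb1, Manba, Lamp2, Gla, Lamp1 and Lipa. Cd63 and Ppt1 had an adjusted p below 0.05 in the blocked fit but lay under the fold change limit, which made 8 of the 29, beside 2.99% of all genes in either direction and 1.75% higher. At an unadjusted p below 0.05 there were 18 of the 29 in the blocked fit, beside 28% of all genes. With the block and voom, 7 were called higher, the same 6 genes and Man2b1, beside 3.08% of all genes. With the pair of replicate 1 left out, the blocked fit still called Gla, Glb1 and Lamp1, 3 of the 29. With the pair of replicate 2, or that of replicate 3, left out it called 0 of the 29 and 0 of all genes tested. In these last fits 10 and 13 of the 29 were at an unadjusted p below 0.05, beside 13.5% and 26% of all genes. Because the contrast was known when the genes were listed, these shares are not read as a result about the list.

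**Figure D1:**
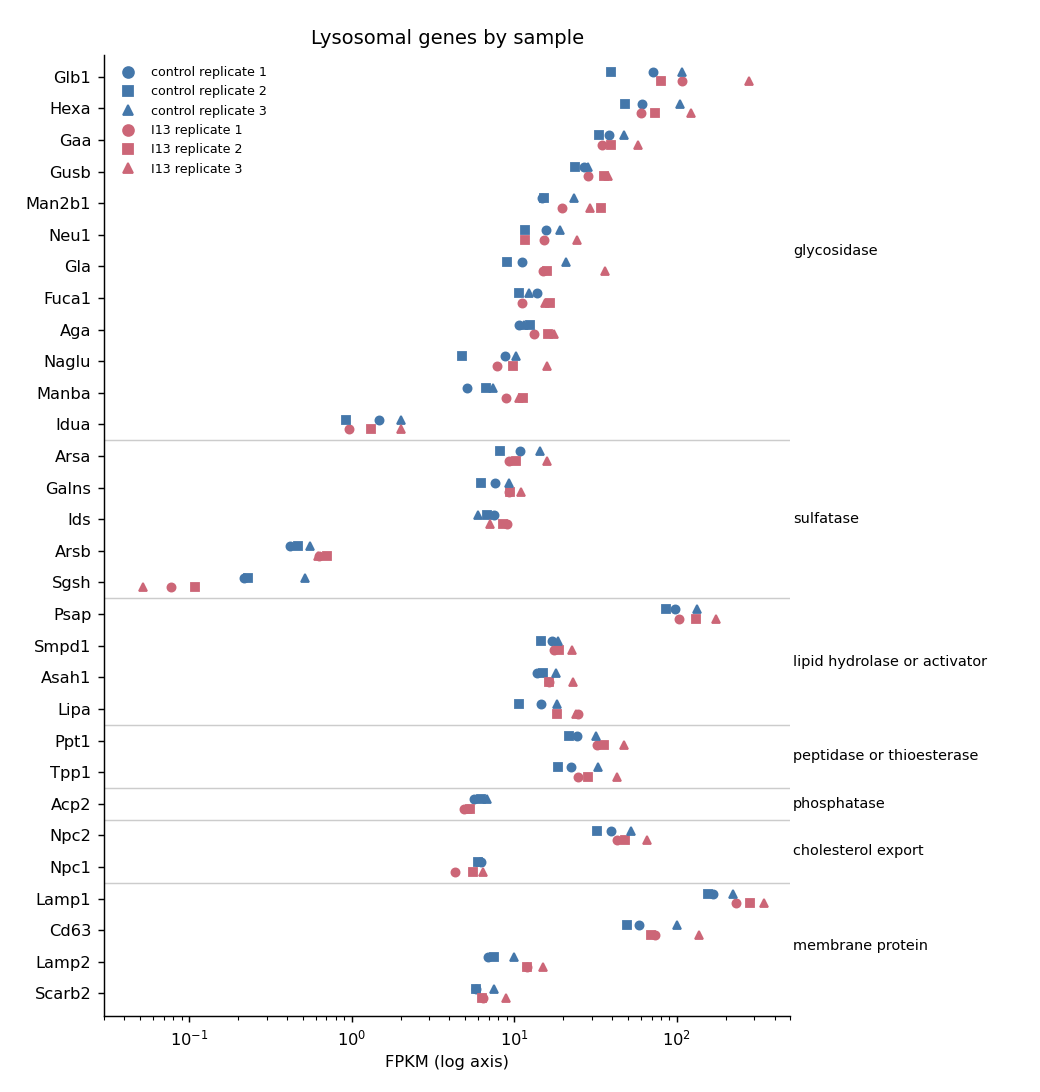
FPKM (log axis) of 30 lysosomal genes in each of the 6 samples, grouped by role, with controls in blue, I13 samples in red and the replicate number given by the symbol. Lamp1 is the most abundant, at 157 to 343 FPKM, and Gm2a is left out because 5 of its 6 values are 0.

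The membrane proteins were higher after I13 in all 4 genes and in all 3 pairs of same-numbered samples. Lamp1, which encodes the most abundant glycoprotein of the lysosomal membrane, was at 166, 157 and 222 FPKM in the controls and at 232, 283 and 343 FPKM after I13. The groups did not overlap, and the log2 fold change was 0.66 (standard error 0.18). Lamp2, whose splice forms serve in chaperone-mediated autophagy and in fusion with autophagosomes, was at 6.92, 7.48 and 10.02 FPKM in the controls and at 11.99, 12.06 and 14.96 FPKM after I13. It too had no overlap between the groups, with a log2 fold change of 0.68 (standard error 0.16). Per length, Lamp1 was thus far more abundant than Lamp2, yet the fold changes of the pair lay within their standard errors of each other. Cd63, a tetraspanin of late endosomes and exosomes, was at 58.9, 49.6 and 100 FPKM in the controls and at 73.6, 69.4 and 138 FPKM after I13. Its groups overlapped because replicate 3 was high in both, but the fold within replicate numbers was even, at 1.25, 1.40 and 1.37. The standard error of its log2 fold change of 0.42 was 0.34 without the block and 0.067 with it, and the log2 fold change was 0.11 without I13 replicate 3 and 0.72 without control replicate 3. Scarb2, the receptor that carries glucocerebrosidase to lysosomes, ran from 5.82 to 7.50 FPKM in the controls and from 6.36 to 8.93 FPKM after I13, a log2 fold change of 0.17 (standard error 0.17) that was 0.01 without I13 replicate 3.

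Among the glycosidases and related enzymes of glycan breakdown, 11 of the 12 genes tested had a higher mean after I13, 6 of them in all 3 pairs, with log2 fold changes from -0.03 to 0.99. Glb1 had the largest difference of the 29 genes. It encodes acid beta-galactosidase, the enzyme read out in the senescence-associated beta-galactosidase stain. Its level was 71.7, 39.3 and 107 FPKM in the controls and 108, 79.9 and 277 FPKM after I13. I13 replicate 2 lay below control replicate 3, so the groups overlapped, while the fold within replicate numbers was 1.50, 2.03 and 2.58. The log2 fold change was 0.99 (standard error 0.51, and 0.15 with the block), and without I13 replicate 3 it was 0.47.

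Gla encodes alpha-galactosidase A, which removes galactose from globotriaosylceramide. It was at 11.3, 8.98 and 20.8 FPKM in the controls and at 15.1, 15.9 and 36.0 FPKM after I13. The samples of replicate 3 were high in both groups, and the fold within replicate numbers was 1.35, 1.77 and 1.73. Its log2 fold change of 0.68 (standard error 0.41, and 0.10 with the block) was 0.27 without I13 replicate 3 and 1.02 without control replicate 3. Manba, the beta-mannosidase of N-glycan breakdown, was at 5.13, 6.73 and 7.42 FPKM in the controls and at 8.94, 11.3 and 10.7 FPKM after I13. Here the groups did not overlap, and the log2 fold change was 0.68 (standard error 0.16). Man2b1, the alpha-mannosidase of the same route, was at 14.8, 15.3 and 23.4 FPKM in the controls and at 19.7, 34.1 and 29.3 FPKM after I13. It was higher in every pair, by 1.33, 2.23 and 1.25 times, and its log2 fold change was 0.63 (standard error 0.25).

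The other glycosidases differed less. Aga, the aspartylglucosaminidase that splits the link between glycan and asparagine, was at 11.6 ± 0.896 FPKM in the control and 15.7 ± 2.21 FPKM after I13 (SD, n = 3 each), without overlap. Gusb, the beta-glucuronidase, was at 26.4 ± 2.55 and 33.9 ± 5.02 FPKM (SD, n = 3 each), with a log2 fold change of 0.35 (standard error 0.14). Both were higher in all 3 pairs. Hexa, the alpha subunit of beta-hexosaminidase, was abundant but followed the replicate number more than the treatment, at 61.5, 48.2 and 104 FPKM in the controls and 60.3, 73.0 and 123 FPKM after I13. Gaa, Neu1, Naglu, Fuca1 and Hexa were lower in the pair of replicate 1, by 0.913, 0.966, 0.903, 0.808 and 0.982 times. Their log2 fold changes over all samples were 0.13, 0.10, 0.50, 0.22 and 0.27. Naglu, with the largest of these (standard error 0.34), was higher by 2.06 and 1.54 times in the pairs of replicates 2 and 3. Idua, the alpha-iduronidase, was the least abundant of the group and was 0.649 times as high in the pair of replicate 1. It was at 0.917 to 2.01 FPKM in the controls and 0.958 to 2.01 FPKM after I13, with a log2 fold change of -0.03 (standard error 0.35).

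Sulfatases remove sulfate from glycosaminoglycans and sulfatides. Of the 5 genes, 4 were tested, and their log2 fold changes ran from 0.08 for Arsa to 0.38 for Arsb. Galns, which acts on keratan sulfate, was at 7.73 ± 1.49 FPKM in the control and 9.91 ± 0.962 FPKM after I13 (SD, n = 3 each). Arsb was at only 0.482 ± 0.068 and 0.652 ± 0.0431 FPKM (SD, n = 3 each), from 45 to 71 fragments a sample. Galns and Arsb had no overlap between the groups, whereas Ids and Arsa did. Sgsh, the sulfamidase of heparan sulfate breakdown, lay under the filter and went the other way. It was at 0.217, 0.231 and 0.514 FPKM in the controls and at 0.0771, 0.108 and 0.0518 FPKM after I13, which is 17, 18 and 40 fragments against 6, 8 and 4. Every I13 sample lay below every control, and the mean was 0.246 times that of the controls.

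Among the genes of lipid breakdown, Psap was the most abundant. It encodes prosaposin, the precursor of the saposins that present sphingolipids to their hydrolases, and was at 97.7, 85.9 and 132 FPKM in the controls and at 104, 131 and 175 FPKM after I13. The groups overlapped, and the fold within replicate numbers was 1.06, 1.52 and 1.32. Its log2 fold change of 0.37 (standard error 0.23) was 0.17 without I13 replicate 3. Lipa, the acid lipase that frees cholesterol and fatty acids from lipoprotein esters, was at 14.6, 10.8 and 18.2 FPKM in the controls and at 24.7, 18.5 and 23.9 FPKM after I13. Its lowest I13 value lay just above its highest control value, and the log2 fold change was 0.64 (standard error 0.21). Asah1, the acid ceramidase, and Smpd1, the acid sphingomyelinase, had log2 fold changes of 0.24 and 0.23 and were higher in all 3 pairs. Gm2a, whose product lets beta-hexosaminidase reach its ganglioside substrate, was at the limit of detection, since 1 fragment was counted in I13 replicate 2 and 0 in the other 5 libraries. A count of 0 allows up to 3 fragments, or about 0.041 FPKM for this gene in control replicate 1, and covers counting error only.

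Ppt1, a thioesterase that strips palmitate from proteins, was at 24.4, 21.6 and 32.1 FPKM in the controls and at 32.5, 35.5 and 47.1 FPKM after I13. The groups were separate by a narrow margin, the fold within replicate numbers was 1.33, 1.64 and 1.47, and the log2 fold change was 0.56 (standard error 0.19). Tpp1, the tripeptidyl peptidase, was at 24.5 ± 7.29 and 32.2 ± 9.66 FPKM (SD, n = 3 each), higher in all 3 pairs with overlapping groups.

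A few genes did not follow the rest, and they were singled out after their values were seen. Acp2, the membrane-anchored acid phosphatase, was at 5.69, 6.29 and 6.78 FPKM in the controls and at 4.89, 5.36 and 5.22 FPKM after I13. It was the only one of the 29 that was lower in all 3 pairs, where 27.3% of all genes tested were, and its log2 fold change was -0.27 (standard error 0.11). The partners of cholesterol export, which hand cholesterol from the soluble Npc2 to the membrane protein Npc1, differed from each other. Npc2 was at 39.5, 32.5 and 52.2 FPKM in the controls and at 43.1, 47.8 and 65.8 FPKM after I13. Npc1 was nearly constant in the controls, at 6.29, 6.02 and 6.17 FPKM, and lay at 4.34, 5.55 and 6.43 FPKM in the I13 samples. The log2 fold changes were 0.34 (standard error 0.22) for Npc2 and -0.19 (standard error 0.15) for Npc1, whose value came mainly from I13 replicate 1 and was -0.04 without it. That of Npc2 was 0.16 without I13 replicate 3 and 0.52 without control replicate 3.

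**Figure D2:**
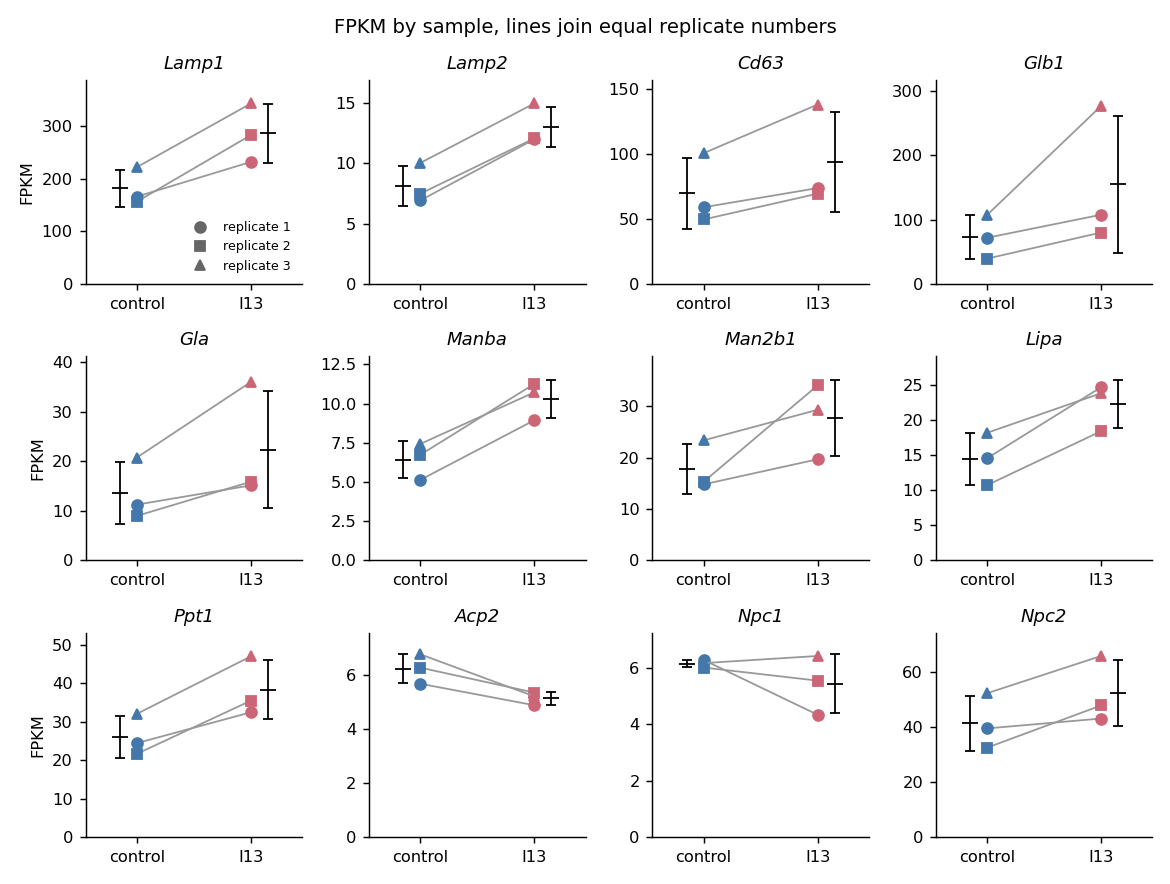
FPKM of 12 lysosomal genes in control (blue) and I13 (red) samples, with lines joining equal replicate numbers and black bars showing the mean and SD of each group (n = 3). Lamp1, Lamp2, Manba, Lipa and Ppt1 are separate between the groups, Glb1, Gla and Cd63 are higher in every pair but spread by replicate number, and Acp2 is lower in every pair.

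Ratios between partner genes in the same library do not depend on the scaling between libraries. The ratio of Npc2 to Npc1 in FPKM was 6.28, 5.39 and 8.46 in the controls and 9.93, 8.61 and 10.2 after I13. That of Glb1 to Neu1, the sialidase with which beta-galactosidase forms a complex, was 4.55, 3.36 and 5.56 in the controls and 7.07, 6.82 and 11.4 after I13. In both ratios every I13 sample lay above every control. The ratio of Lamp1 to Lamp2 was 24.0, 20.9 and 22.2 in the controls and 19.4, 23.5 and 23.0 after I13, so the groups overlapped.

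Over the 29 genes, 20 were higher after I13 in all 3 pairs, beside 24.1% of all genes tested, and 8 had a mixed direction. In 8 genes every I13 sample lay above every control, beside 9.82% of all genes, and in 1 below, beside 15.4%. The log2 fold change was at or above 0.58 in 7 genes, beside 6.08% of all genes, and in 0 genes was it as far below 0, beside 3.34% of all genes. The medians over the 29 genes within replicate numbers 1, 2 and 3 were 0.15, 0.58 and 0.33 on the log2 scale, so the pair of replicate 1 had the smallest difference. Across the 29 genes, Spearman's rho of the log2 fold change was 0.30 with the mean control FPKM and -0.19 with the gene length. The genes share their libraries, and these are descriptions without a test.

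**Figure D3:**
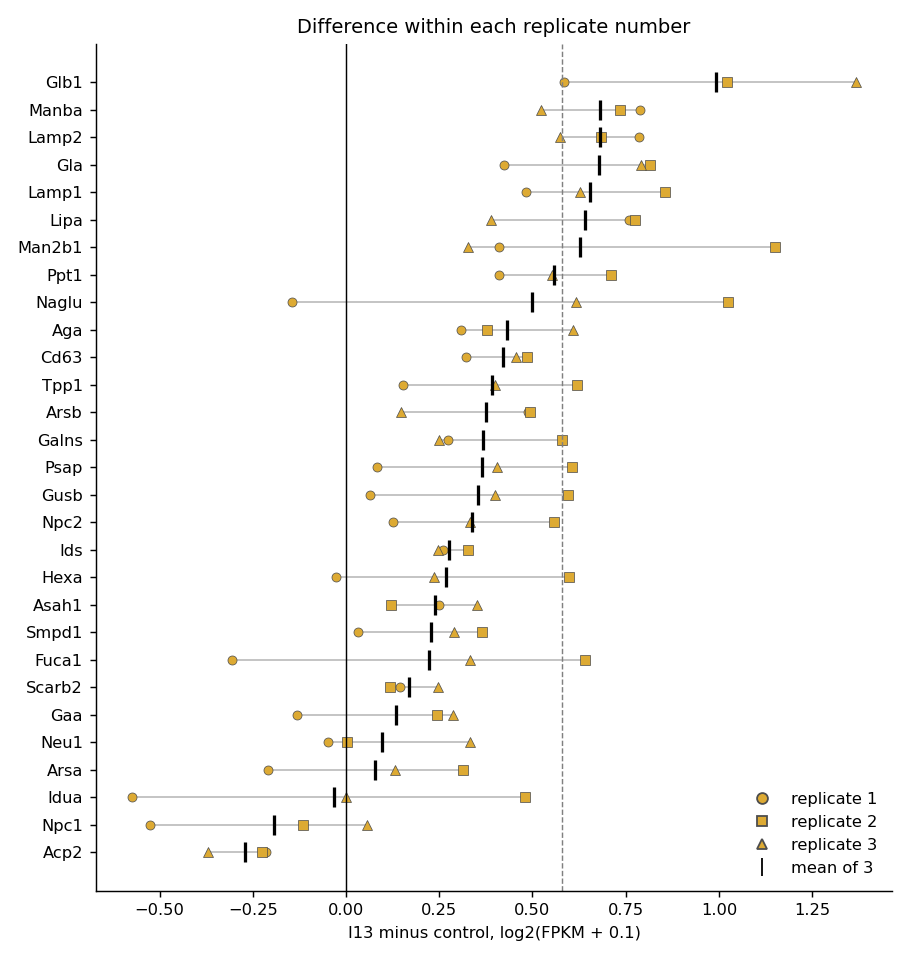
Difference in log2(FPKM + 0.1) between I13 and control within each replicate number for the 29 genes tested, with the mean of the 3 as a black bar and the limit of 0.58 as a dashed line. The mean is above 0 in 26 genes, and the pair of replicate 1 is the lowest in many of them.

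The levels of these genes differed by replicate number as well as by treatment. Control replicate 3 was the highest of the controls in 25 of the 29 genes, beside 31.8% of all genes tested, and I13 replicate 3 was the highest of the I13 samples in 22, beside 29.6%. In 20 genes replicate 3 was the highest in both groups, beside 16% of all genes. Control replicate 2 was the lowest control in 20 genes, beside 29.1% of all genes, and I13 replicate 1 the lowest I13 sample in 21, beside 28.6%. The sample most often lowest thus had a different replicate number in each group, unlike the sample most often highest. The median deviation from the gene mean was -0.27, -0.45 and 0.11 in control replicates 1, 2 and 3 and -0.06, 0.06 and 0.49 in I13 replicates 1, 2 and 3, on the log2 scale. Over all genes tested it lay between -0.06 and 0.06 in every sample. Scaling to the library size keeps that median near 0, so it does not show whether single genes outside the list had this order. Control replicate 3 had a median above those of I13 replicates 1 and 2.

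**Figure D4:**
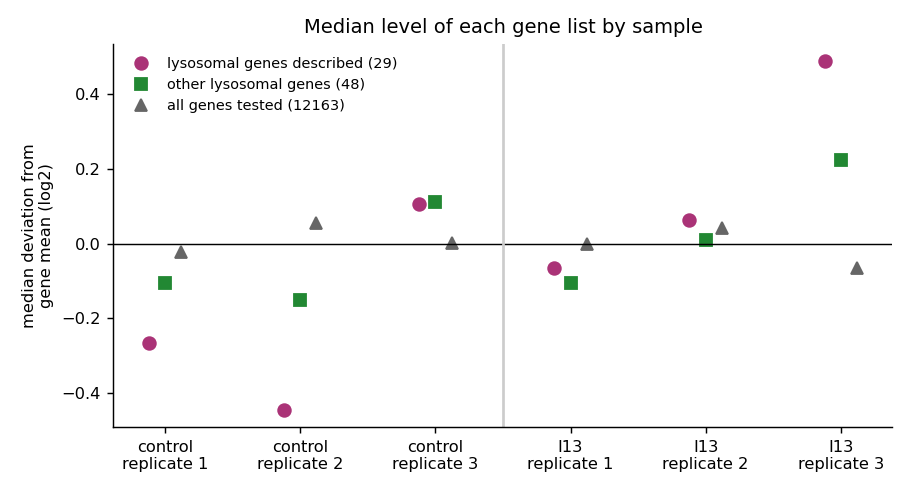
Median over each gene list of the deviation from the gene's mean over 6 samples, in log2(FPKM + 0.1), for the 29 lysosomal genes, 48 other lysosomal genes and all 12163 genes tested. The 29 genes run from -0.45 in control replicate 2 to 0.49 in I13 replicate 3, and all genes stay between -0.06 and 0.06.

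The spread of each gene was divided between treatment, replicate number and the rest. The median shares over the 29 genes were 28.9% for treatment, 49.9% for replicate number and 6.27% for the rest, and over all genes tested the medians were 25.9%, 42.2% and 16.1%. In 17 of the 29 genes the share of the replicate number was larger than that of the treatment. Replicate number has 3 levels and treatment 2, so its share tends to be the larger even where neither has an effect. The count is therefore not read as a stronger effect of the replicate number. Treatment held most of the spread in Manba (77.1%), Lamp2 (75.9%), Arsb (75.5%), Acp2 (73.2%) and Aga (71.5%). Replicate number held most of it in Neu1 (93.2%), Arsa (88.2%), Hexa (84.3%), Scarb2 (82.8%) and Gaa (81.8%). Cd63 had only 0.532% left over, its spread being 80.9% replicate number and 18.6% treatment. Fuca1 stood apart, with 70.6% in neither, 22.6% in treatment and only 6.79% in replicate number. It was lower in the pair of replicate 1 and higher in those of replicates 2 and 3. Hexa, Gaa, Neu1, Naglu and Arsa had the same order of signs with a smaller rest.

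**Figure D5:**
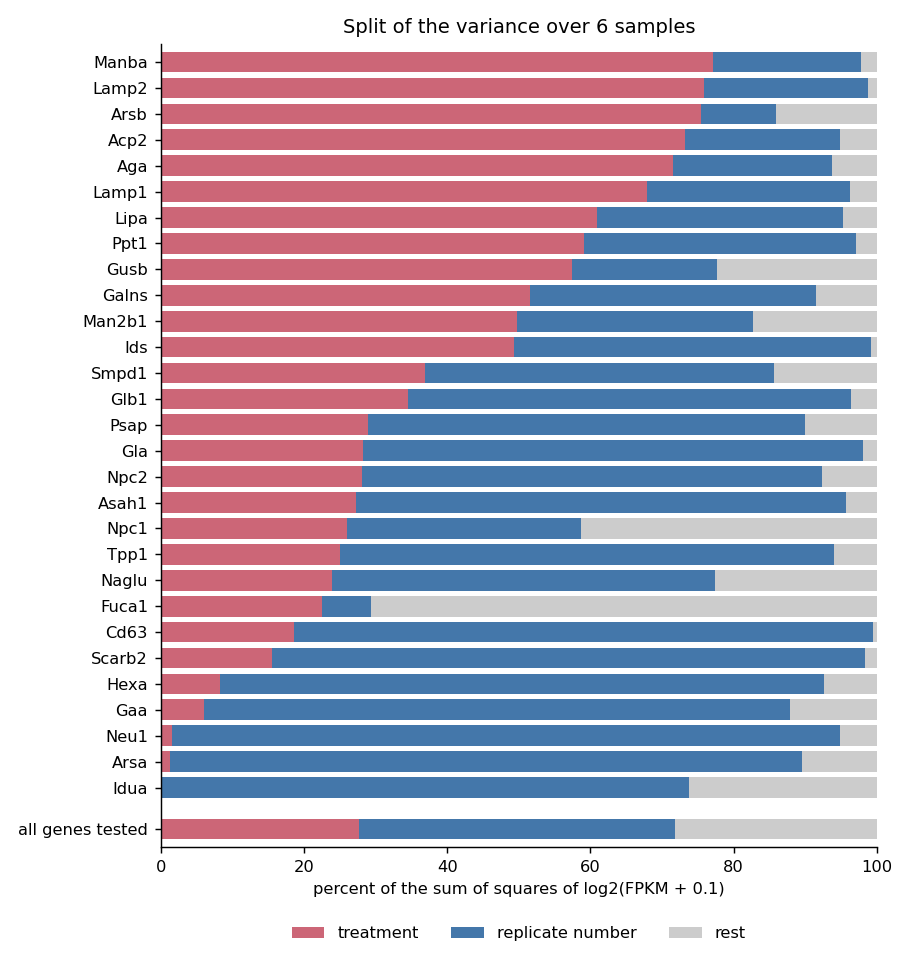
Share of the sum of squares of log2(FPKM + 0.1) over the 6 samples that lies between treatments (red), between replicate numbers (blue) and in the rest (grey), for the 29 genes and for all genes tested together. Treatment runs from 77.1% in Manba down to 0.139% in Idua.

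Other genes of the lysosome were taken from a second list of 55 names, without cathepsins, proton pump subunits and TFEB relatives, of which 52 had a row and 48 were tested. In limma without the block 0 of the 48 were called, with 4 at an unadjusted p below 0.05, beside 18.6% of all genes. With the block 0 were called and 1, the phospholipase gene Pla2g15, had an adjusted p below 0.05, beside 2.99% of all genes. With the block and voom 4 of the 48 were called higher and 0 lower, beside 3.08% and 1.05% of all genes. The median log2 fold change of the 48 genes was 0.10, with 33 higher and 15 lower in the mean, beside 49.2% higher over all genes. The 20 hydrolases among the 48 had a median of 0.18, the 11 genes of mannose 6-phosphate tagging and sorting 0.02, and the 17 membrane proteins 0.06. The genes named next were singled out after their values were seen. At the upper end were Pld3 with 0.72 (standard error 0.35) and Laptm5 with 0.67 (standard error 0.29). M6pr, the cation-dependent mannose 6-phosphate receptor, was at 65.7 ± 4.93 FPKM in the control and 80.3 ± 4.31 FPKM after I13 (SD, n = 3 each). Gga1, an adaptor that sorts this receptor at the Golgi, was at 20.0 ± 0.933 and 15.2 ± 1.14 FPKM (SD, n = 3 each). Both were separate between the groups, M6pr upward and Gga1 downward. Of the 48 genes, 3 had every I13 sample above every control, beside 9.82% of all genes. In 4 of the 48 every I13 sample lay below every control, beside 15.4%. Replicate 3 was the highest in both groups in 29 of the 48 genes, again beside 16% of all genes.

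The library totals lay between 16762119 and 17722950 fragments, and for the 29 genes tested 45 to 16080 fragments were counted per sample. Genes that mark other cell types were read in the same samples. Of 14 pro-B cell markers, 3 reached a mean of 0.5 FPKM, and Pax5, Ebf1, Il7r and Igll1 were at or near 0. Of 6 markers of IL-3-dependent progenitors, 4 had a row, Kit and Cd34 not among them, and these summed to 457 to 900 FPKM in the controls and 927 to 1672 FPKM after I13, highest in replicate 3 of each group and mostly from Csf2rb and Csf2rb2, which are near-identical copies. The 14 macrophage and granulocyte markers, 4 of which reached 0.5 FPKM, summed to 26.6 to 50.6 FPKM in the controls and 60.9 to 93.5 FPKM after I13, mostly from Adgre1, while Csf1r, Mpo, Elane and Mrc1 were at or near 0. The 9 mast cell and basophil markers summed to 207 to 317 FPKM and 156 to 263 FPKM, mostly from Gata2, and fibroblast markers were at or near 0. The macrophage and granulocyte sum and the progenitor sum were thus higher after I13 in every pair, as was the sum of the lysosomal genes. Among the I13 samples the macrophage and granulocyte sum was lowest in replicate 2, and the lysosomal sum in replicate 1. Cd68, a marker in the macrophage and granulocyte list, is also among the other lysosomal genes. The mast cell and basophil sum was lower after I13 in every pair, as was Gata2. The other markers of that list that reached 0.5 FPKM did not follow Gata2 in every pair. Cma1, Cpa3 and Hdc were higher after I13 in the pair of replicate 2 and lower in that of replicate 3. In the pair of replicate 1, Cpa3 was higher, and Cma1 and Hdc were lower. The part of these cell types in the result was not tested. Actb was at 1479 ± 187 FPKM in the control and 1613 ± 188 FPKM after I13 (SD, n = 3 each). It was lower after I13 in the pair of replicate 1 and higher in the other pairs. Gapdh was at 14.2 ± 0.481 FPKM in the control and 12.9 ± 2.07 FPKM after I13 (SD, n = 3 each). Its level was higher after I13 only in the pair of replicate 3.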

How the data were processed

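BaF3-T315I cells were sequenced as 3 control and 3 I13 samples from stranded mRNA libraries. The authors deposited FPKM values per gene for each single sample. No further scaling across samples is named in the sources. The submitters' processing notes name Trimmomatic, HISAT2, Cufflinks and HTSeq and the human build hg38, whereas the gene identifiers are those of mouse Ensembl and the study calls the cells murine; the values were used as mouse genes. No mouse genome or annotation was used here, so coordinates, sequences and overlaps with neighbouring genes are not given. Samples were assigned from the labels, and 0 columns were left without a sample. Nothing in the labels says that replicates are separate cultures, so p-values measure only the spread between these samples.

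The FPKM of 22412 genes were turned back into whole fragments by finding the whole gene length that gives whole fragments in all 6 samples (within a share of 1e-05).

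limma 3.58.1 in R 4.3.3 was run on log2(FPKM + 0.1) with a trend, keeping genes whose FPKM averaged 0.5 or more, with Benjamini-Hochberg adjustment. The FPKM scale with a pseudocount understates fold changes of low genes. The value for Sgsh came from the samples' means. The fit was checked on simulated fragments in which 198 tested genes were changed by 1 in log2, up or down. Of these, 73.7% were called without the block and 62.1% with it. The simulation held no differences between replicate numbers, so it does not check what the block does in these data. Deviations from group means correlated at 0.15, 0.30 and 0.22 for same-numbered samples and at -0.26 to 0.05 for the others, with all same-numbered values above 0.1. On that ground, and not from a statement in the labels, the numbers were treated as pairs. Genes given in full were those that differed by 0.58 or more in log2 fold change, those with an adjusted p below 0.05 in either fit, Lamp1, Lamp2 and the 3 most abundant; exceptions are named. The genes, lists and tests were chosen with earlier results of these data known. Alternatives were other pseudocounts, filters and scalings, eBayes without trend, the replicate block, voom, and leaving out samples. Plots used matplotlib 3.10.9 under Python 3.11.15. Promoter motifs were not searched, since no mouse promoter table was used here. Values of some single genes are not reported here.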

Additional observations from a re-analysis of the deposited data

How the results depend on the processing

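The replicate block, which treats equal numbers as pairs, moved the counts of calls. In that fit 166 of all genes tested were called higher and 64 lower, against 4 and 1 without it, and 6 of the 29 lysosomal genes were called higher, against 0. Adding voom, on recovered fragments, to the block made these 375, 128 and 7, and 4 of the other lysosomal genes were called higher. The block changed no further call among the 29 genes or the 48 other lysosomal genes, and 2 progenitor markers and 1 macrophage marker were called higher with it. A pseudocount of 0.01 and median-ratio scaling each gave 2 higher and 0 lower over all genes, and no filter and eBayes without trend each gave 3 lower. When 1 sample was left out, or both samples of 1 replicate number in the blocked fit (chosen after seeing the data), the counts over all genes ran from 0 to 78 higher and from 0 to 5 lower. Under the same settings 0 to 3 of the 29 genes and 0 to 1 of the other lysosomal genes were called higher. These fits hold fewer samples. Elsewhere the cause was not tested. The median log2 fold change of the 29 genes stayed above 0 under all 19 alternatives, from 0.17 to 0.50. Of the 29 genes, 24 kept the sign of their log2 fold change in every alternative in which they were tested, and Neu1, Gaa, Hexa, Idua and Arsa changed it when samples were left out. Low levels limit Sgsh, Arsb and Gm2a, which rest on at most 71 fragments a sample.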

Other observations

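Outside the lysosomal genes, Cma1, the mast cell chymase, was singled out after its values were seen because it sets the samples of replicate 3 apart. It was at 14.8, 11.9 and 81.1 FPKM in the controls, in the order of replicates 1, 2 and 3, and at 8.56, 13.4 and 45.9 FPKM after I13. Cpa3, another mast cell granule protease, was at 1.26, 1.196 and 9.39 FPKM in the controls and at 2.62, 2.60 and 5.38 FPKM after I13. Both were highest in replicate 3 of each group, the samples in which most of the lysosomal genes were highest as well.

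Csf2rb and Csf2rb2, which encode the common and the IL-3-specific beta chain of the cytokine receptor, were also highest in replicate 3. They are near-identical copies, so the split of reads between them is uncertain, and they were singled out after their values were seen, as was Adgre1. Csf2rb was at 286, 239 and 463 FPKM in the controls and at 448, 477 and 838 FPKM after I13. Csf2rb2 was at 253, 196 and 408 FPKM in the controls and at 449, 471 and 795 FPKM after I13. Adgre1, which encodes the macrophage antigen F4/80, was at 37.6, 18.1 and 40.1 FPKM in the controls and at 72.1, 44.1 and 76.7 FPKM after I13, without overlap between the groups. No test of a link between these genes and the lysosomal genes was made.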
